A study of Mus musculus with 6 samples.

Results

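The genes described here are 10 members of the early response: the EGR genes Egr1, Egr2 and Egr3 with their corepressor gene Nab2, the NR4A genes Nr4a1, Nr4a2 and Nr4a3, and the GADD45 genes Gadd45a, Gadd45b and Gadd45g. They were taken by exact gene name from a table of 53278 genes, and all 10 were found. Of these, 9 passed a filter on low counts and were tested among 14361 genes, and Nr4a3 did not pass it. The cells were type-2 innate lymphoid cells (ILC2s) sorted from the visceral adipose tissue of C57BL/6 mice aged 8 weeks, all of which had received 3 injections of 1 µg of IL-33. After sorting they were kept with IL-2 and IL-7 (10 ng/mL each) and either with DTA-1 at 5 µg/mL, an agonistic antibody to the costimulatory receptor GITR, or with the matching isotype control. There were 3 libraries in each group, made from 10 ng of RNA. The labels give a culture of 48 h for all libraries, while the results text of the study gives a shorter time. IL-33 was thus common to both groups, and no library of untreated ILC2s was compared here. The labels do not say whether libraries came from separate mice or cultures, so p-values measure only the spread between libraries, which may be technical.

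Early response genes are transcribed within minutes of a signal, before any new protein is made, and most of their transcripts decay quickly. EGR proteins are zinc finger transcription factors induced through MAP kinases and serum response factor, and NAB2 binds them and represses their targets, so that it acts as a brake on the same response. NR4A proteins are orphan nuclear receptors that act without a known natural ligand and are read in lymphocytes as a mark of recent antigen receptor signalling. GADD45 proteins are small stress-induced proteins that bind and activate the kinase MTK1 (Map3k4) upstream of p38 and JNK, and Gadd45b is a known target of NF-κB, the pathway that TNF receptor family members such as GITR engage. At a culture time of hours to days, transcript levels of such genes are late values rather than the first peak after stimulation.

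The total count per library was 34557215 to 35131329 in isotype control and 30569351 to 32492849 in DTA-1. Values are normalized counts, that is CPM after TMM scaling of the library totals. All 12 genes of a list of ILC2 markers were detected in every library, including Gata3, Il1rl1 (the IL-33 receptor), Il7r and Kit. Their summed normalized counts were 12070 to 13101 in isotype control and 13196 to 17351 in DTA-1. The type 2 cytokine gene Il5 was the most abundant of them, at 5063 to 5493 in isotype control and 5627 to 9695 in DTA-1. Of the 12 genes 5 had a higher and 7 a lower fitted value with DTA-1, with a median log2 fold change of −0.03. Gata3, Il1rl1, Il7r and Kit were among the 7. By a chi-square of counts divided by its degrees of freedom, DTA-1 replicate 1 lay nearer to the isotype control libraries (9.64 to 11.3) than to DTA-1 replicates 2 and 3 (27.1 and 28.2). No pair of libraries lay closer than 9.64, so none was a copy of another. Results for the 10 genes, and calls in the related lists, are therefore given with and without DTA-1 replicate 1. Without it, 3 of the ILC2 markers had an edgeR adjusted p under 0.05 with a change of at least 1.5-fold. Il5 and Areg were higher with DTA-1 (log2 fold changes 0.80 and 0.75, edgeR adjusted p = 0.000115 and 0.000163). Icos was lower (−0.71, edgeR adjusted p = 0.00129). Of all genes tested 0.744% were called in that comparison.

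The promoter sequences of the NR4A genes and of Gadd45b are shown because these genes span the pattern described here. Nr4a1 was expressed at moderate levels, Nr4a2 was close to the limit of detection, Nr4a3 had no counts, and Gadd45b had the highest fold change among the genes whose groups did not overlap. RefSeq windows (GRCm38.p6) were found for 8 of the 10 genes, all but Egr1 and Egr3, whose promoters were therefore not searched. In each window 250 bases before the start were searched on both strands. Of each window only the bases before the start of the gene in the deposited table are printed, 5′ to 3′ on the strand of the gene. They lie at chr15:101266596-101266845 (Nr4a1, plus strand), chr2:57124004-57124253 (Nr4a2, minus strand), chr4:48045055-48045152 (Nr4a3, plus strand) and chr10:80929841-80930072 (Gadd45b, plus strand). Capitals mark TGACG, the half-site of the cyclic AMP response element (CRE), on either strand, and in Nr4a1 also the EGR site GCGGGGGCG on the minus strand.
Nr4a1: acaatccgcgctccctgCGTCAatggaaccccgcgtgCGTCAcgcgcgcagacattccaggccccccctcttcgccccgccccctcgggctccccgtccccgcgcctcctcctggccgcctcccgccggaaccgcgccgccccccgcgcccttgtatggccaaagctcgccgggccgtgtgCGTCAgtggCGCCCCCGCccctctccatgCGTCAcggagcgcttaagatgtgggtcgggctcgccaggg
Nr4a2: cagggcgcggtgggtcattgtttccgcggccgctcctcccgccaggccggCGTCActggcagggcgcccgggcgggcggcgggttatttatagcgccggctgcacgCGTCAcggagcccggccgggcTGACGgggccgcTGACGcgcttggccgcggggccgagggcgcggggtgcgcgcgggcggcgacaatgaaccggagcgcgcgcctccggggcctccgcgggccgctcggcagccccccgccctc
Nr4a3: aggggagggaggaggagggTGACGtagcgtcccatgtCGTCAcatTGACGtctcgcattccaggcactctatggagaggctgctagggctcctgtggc
Gadd45b: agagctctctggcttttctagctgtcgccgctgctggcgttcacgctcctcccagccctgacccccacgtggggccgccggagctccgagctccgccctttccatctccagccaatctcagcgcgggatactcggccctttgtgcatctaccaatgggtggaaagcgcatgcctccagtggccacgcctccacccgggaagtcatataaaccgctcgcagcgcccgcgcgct
Each of the 3 NR4A windows held 4 copies of TGACG within its 250 bases, against at least 1 copy in 17.8% and at least 4 copies in 0.137% of 32851 promoter windows of the same length. The 4th copy in Nr4a3 lies beyond the printed stretch. The NR4A windows thus shared this feature while their transcript levels, given below, ranged from no counts to 18.4 normalized counts. Among the other genes searched TGACG was found in Egr2 alone, at 2 copies in each window that held it. Those windows overlap and hold the same copies. The full CRE TGACGTCA, which contains the half-site on both strands and occurs in 1.55% of windows, was in none of the windows of the 8 genes. The EGR site GCGGGGGCG (2.57% of windows) was found in Nr4a1 alone, and the EGR site GCGTGGGCG (0.536%) in none. A CArG box, the element bound by serum response factor (1.47% of windows), was found in 4 of the 5 windows of Egr2 and in no other gene searched. Some of these Egr2 windows overlap and hold the same box, so the 4 are not separate finds. A κB site (3.9% of windows) was in none of the windows searched, those of Gadd45b and Nab2 included. This says only that these letters are not in these windows. The Nab2 window and 4 of the Egr2 windows belong to starts inside the gene as the table gives it.

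Whether GITR engagement changed these genes was asked by comparing DTA-1 with isotype control. Egr1, Nab2 and Gadd45b were higher in all 3 DTA-1 libraries than in any isotype control library, by 1.29-fold to 1.64-fold. Egr2, Egr3, Nr4a1, Nr4a2, Gadd45a and Gadd45g overlapped between the groups. By edgeR's quasi-likelihood test none of the 9 genes had an adjusted p under 0.05 with a change of at least 1.5-fold, the threshold for differential expression (count of 0), and neither had any of the 14361 genes tested (0.0%). At an unadjusted p under 0.05 there were 3 of 9, all higher with DTA-1, against 4.11% of all genes tested, and 1 of 9, Gadd45b, when the 1.5-fold limit was kept, against 1.09%. DESeq2's Wald test and limma-trend also found none at this threshold. The groups did not overlap in 3 of 9 genes in the higher direction and in 0 of 9 in the lower, against 5.29% and 6.04% of all genes tested. The members were chosen with results of these data known, so these shares are a description. Of the 9 genes 7 had a higher fitted value with DTA-1, with a median log2 fold change of 0.36, beside 48.1% and −0.01 over all genes tested. Without DTA-1 replicate 1 the median of the 9 genes was 0.48.

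**Figure D1:**
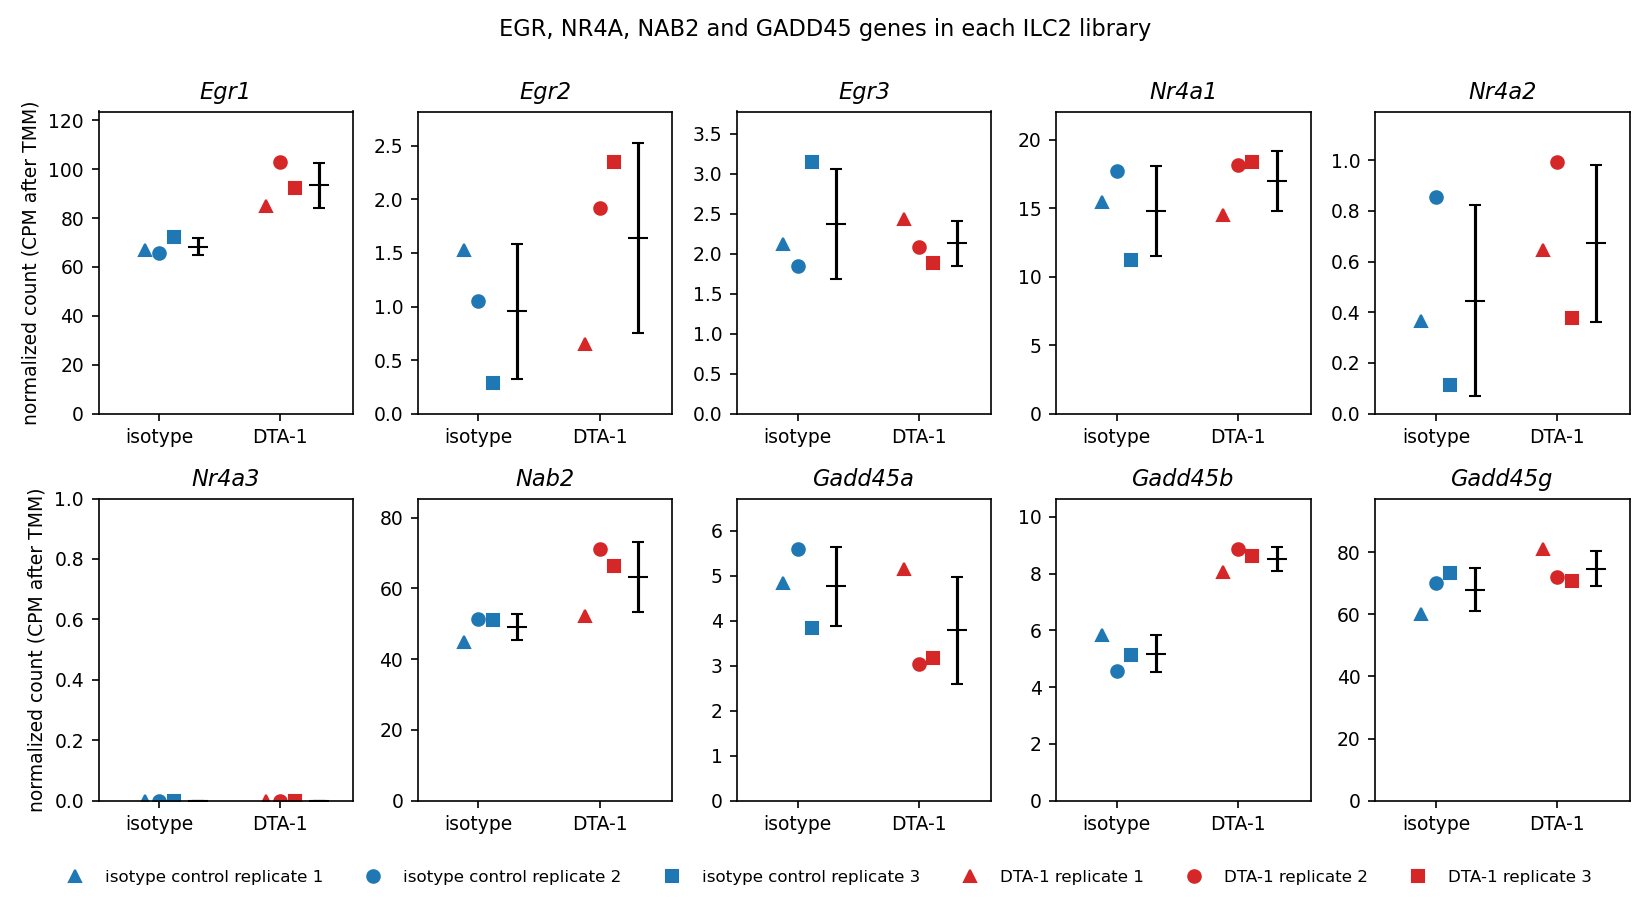
Normalized counts (CPM after TMM scaling, linear axes from 0, each gene on its own scale) of the 10 genes in the 3 isotype control (blue) and 3 DTA-1 (red) libraries, with the mean ± SD of each group in black. Egr1, Nab2 and Gadd45b have all red points above all blue points, while the other 7 genes overlap or, for Nr4a3, lie at 0 in every library.

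Egr1, a zinc finger activator and the best known immediate early factor of its family (chromosome 18, 34859823 to 34864984, plus strand), had 67.1, 65.7 and 72.1 normalized counts in the isotype control libraries, in order of replicate number, against 84.8, 103.0 and 92.5 in the DTA-1 libraries. The lowest DTA-1 library, replicate 1, thus stood above the highest isotype control library. The log2 fold change of Egr1 was 0.45 (SE, its standard error, 0.09, 95% interval 0.26 to 0.64), or 1.37-fold. Its unadjusted edgeR p of 0.000316 ranked 8 among 14361 genes, and the edgeR adjusted p was 0.491. Under DESeq2's Wald test the adjusted p of Egr1 was 0.00545, one of 12 genes higher at an adjusted p under 0.05 (0.059% of 20351), short of the 1.5-fold limit. Without DTA-1 replicate 1 its value became 0.52 (edgeR adjusted p = 0.0144), where 1.35% of 14911 genes were higher at an adjusted p under 0.05. Over all alternatives the adjusted p of Egr1 ranged from 0.00545 to 0.997, and with each library left out in turn its log2 fold change stayed between 0.38 and 0.52.

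Egr1 is also abundant in stromal cells, so markers of other cell types were read in the same libraries. The summed normalized counts of 10 fibroblast genes, Col1a1, Col3a1, Pdgfra and Ctgf among them, were 7.04 to 11.6 in isotype control and 0.288 to 4.77 in DTA-1. All 7 tested fibroblast genes had a lower fitted value with DTA-1. Of the 7, 4 (Col1a1, Pdgfra, Fbn1 and Ctgf, named after their values were seen) were called lower by DESeq2 with all libraries. The same 4 were called lower by edgeR without DTA-1 replicate 1, where 0.744% of all genes tested were called. They passed the filter on low counts only through the isotype control libraries, so their lower values are a description. Pdgfrb, which was not tested, had 27 counts in DTA-1 replicate 1 and at most 1 in any other library. Pdgfra, Fbn1 and Ctgf had 0 counts in all 3 DTA-1 libraries, and the list was drawn up with earlier results of these data known. The summed endothelial markers were 18.4 to 24.4 in isotype control and 10.6 to 18.3 in DTA-1. Nearly all of that was Pecam1, which was lower in every DTA-1 library than in any isotype control library, by −0.72 on the log2 scale (edgeR adjusted p = 0.627), and called lower without DTA-1 replicate 1 (−1.03, edgeR adjusted p = 0.0132). The defining endothelial genes Cdh5 and Emcn had 0 counts in every library. Kdr and Tek of the same list went the other way from Pecam1, with counts in DTA-1 alone. Kdr had 5 counts in DTA-1 replicate 2 and Tek 19 counts in DTA-1 replicate 3. The summed levels of T cell, B cell, macrophage, neutrophil, adipocyte and mesothelial markers overlapped between the groups, with Cd8a, Ms4a1, C1qb, S100a8, S100a9, Retnlg, Cfd, Lep, Msln and Upk3b at 0 counts throughout. Some markers of these lists were present in every library, the most abundant being Cd3g of T cells at 36.2 to 48.6 normalized counts, Cd79b of B cells at 16.4 to 17.8 and Cd68 of macrophages at 3.96 to 10.6. Cd3e, Cd3d, Trac and Cd4 of T cells, Adgre1 of macrophages and Cd79a of B cells also had counts in every library, at lower levels. Cd79a, at 1 to 16 counts, was higher in normalized counts in every DTA-1 library than in any isotype control library. The part of other cell types in the level of Egr1 was not tested. In bulk RNA fewer cells of a type and less RNA per cell cannot be told apart.

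Nab2, which encodes the EGR corepressor (chromosome 10, 127660918 to 127668568, minus strand), had 44.9, 51.3 and 51.2 normalized counts in the isotype control libraries against 52.1, 71.2 and 66.3 in the DTA-1 libraries. The groups did not overlap, but DTA-1 replicate 1 lay just above the 2 highest isotype control libraries. For Nab2 a log2 fold change of 0.36 was fitted (SE 0.12, 95% interval 0.10 to 0.62, edgeR adjusted p = 0.627). Without DTA-1 replicate 1 it was 0.48, or 1.4-fold (edgeR adjusted p = 0.0391), the adjusted p being the lowest over all alternatives. Egr1 and Nab2 were the 2 of 9 genes with an adjusted p under 0.05 in that comparison, and neither reached 1.5-fold. At 1.5-fold the comparison without DTA-1 replicate 1 called 0 of 9 genes, against 0.744% of all genes tested. On the other strand Nab2, with 2941 exon bases, shares 1050 of them with the antisense RNA gene Gm16229, 151 with Nemp1 and 40 with Stat6. Gm16229 had 0 to 5 counts per library, with all 3 DTA-1 libraries above isotype control. The log2 fold changes of these neighbours were 0.09 for Stat6 (edgeR adjusted p = 0.769) and −0.06 for Nemp1 (edgeR adjusted p = 0.961). Stat6 had 7774 to 8962 counts per library, and whether counting used strand is not given, so reads of Nab2 and of these genes cannot be told apart where they overlap.

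Egr2 and Egr3, which restrain T cell activation, had far fewer reads than Egr1. Egr2 (chromosome 10, 67535475 to 67542188, plus strand) gave 54, 37 and 10 counts across the isotype control libraries, or 1.53, 1.05 and 0.283 normalized counts. In DTA-1 it had 20, 60 and 75 counts, or 0.647, 1.92 and 2.35 normalized counts. Both groups spread widely, with isotype control replicate 3 and DTA-1 replicate 1 the lowest, and only DTA-1 replicates 2 and 3 stood above isotype control. Egr2 had a fitted log2 fold change of 0.78 (SE 0.62, 95% interval −0.58 to 2.14, edgeR adjusted p = 0.822). It ranged from 0.34 without isotype control replicate 3 to 1.29 without isotype control replicate 1, and was 1.16 without DTA-1 replicate 1 (edgeR adjusted p = 0.423) and 0.43 without DTA-1 replicate 3. Egr3 (chromosome 14, 70077203 to 70082614, plus strand) had 2.12, 1.85 and 3.15 normalized counts in the isotype control libraries against 2.43, 2.08 and 1.88 in the DTA-1 libraries. Here the highest value was isotype control replicate 3, and no DTA-1 library lay outside the isotype control range. For Egr3 a log2 fold change of −0.16 was fitted (SE 0.32, 95% interval −0.86 to 0.54, edgeR adjusted p = 0.944). It turned to 0.10 without isotype control replicate 3 and was −0.26 without DTA-1 replicate 1 (edgeR adjusted p = 0.818). The interval of Egr2 did not exclude a change of 1.5-fold toward higher values, and that of Egr3 did not exclude one toward lower values but did exclude one toward higher values.

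Nr4a1, which encodes NUR77 (chromosome 15, 101266846 to 101274792, plus strand), had 15.5, 17.7 and 11.2 normalized counts in the isotype control libraries against 14.5, 18.2 and 18.4 in the DTA-1 libraries. DTA-1 replicate 1 lay within the isotype control range and the other DTA-1 libraries lay above it. Its fold change was 0.20 on the log2 scale (SE 0.18, 95% interval −0.20 to 0.60, edgeR adjusted p = 0.847), 0.30 without DTA-1 replicate 1 (edgeR adjusted p = 0.535) and 0.03 without isotype control replicate 3. Nr4a2, which encodes NURR1 (chromosome 2, 57106830 to 57124003, minus strand), gave 13, 30 and 4 counts in the isotype control libraries against 20, 31 and 12 in the DTA-1 libraries. The groups overlapped, with only DTA-1 replicate 2 above isotype control in normalized counts (0.993 against at most 0.855), and 4 counts in isotype control replicate 3 was close to the limit of 3 counts. Its log2 fold change of 0.59 had a 95% interval of −0.96 to 2.14 (SE 0.71, edgeR adjusted p = 0.895). It was 0.62 without DTA-1 replicate 1 (edgeR adjusted p = 0.823), 1.47 without isotype control replicate 2, 0.13 without isotype control replicate 3 and 0.20 without DTA-1 replicate 2. Nr4a3, which encodes NOR1 (chromosome 4, 48045153 to 48086447, plus strand), had 0 counts in all 6 libraries. A count of 0 allows up to 3 counts per library, which equals 0.0848 to 0.0855 normalized counts in isotype control and 0.0941 to 0.097 in DTA-1, and this limit covers counting error only. Of the NR4A transcripts measured per kilobase of exon, Nr4a1 made up 95.5% to 99.1% in each library.

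Gadd45b (chromosome 10, 80930073 to 80932204, plus strand) had 5.85, 4.56 and 5.13 normalized counts in the isotype control libraries against 8.05, 8.87 and 8.63 in the DTA-1 libraries. All 3 DTA-1 libraries lay close together and well above isotype control, DTA-1 replicate 1 included. The log2 fold change of Gadd45b was 0.72 (SE 0.19, 95% interval 0.31 to 1.13), or 1.64-fold, from 160 to 207 counts in isotype control and 249 to 277 in DTA-1. Its unadjusted edgeR p was 0.00273, rank 51 of 14361 genes, and the edgeR adjusted p was 0.627. Without DTA-1 replicate 1 the log2 value was 0.76 (edgeR adjusted p = 0.123), and it stayed between 0.63 and 0.82 with each library left out in turn. The lowest adjusted p over the alternatives was this 0.123.

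Gadd45a and Gadd45g encode proteins of the same fold that bind the same kinase. Gadd45a, the p53-inducible member (chromosome 6, 67035096 to 67037457, minus strand), had 4.85, 5.6 and 3.84 normalized counts in the isotype control libraries against 5.16, 3.03 and 3.17 in the DTA-1 libraries. DTA-1 replicates 2 and 3 lay below isotype control and DTA-1 replicate 1 lay within it. On the log2 scale Gadd45a differed by −0.33 (SE 0.28, 95% interval −0.95 to 0.28, edgeR adjusted p = 0.832), and −0.63 without DTA-1 replicate 1 (edgeR adjusted p = 0.335). It was −0.19 without DTA-1 replicate 2. Of its 1764 exon bases Gadd45a shares 337 with the noncoding gene E230016M11Rik on the other strand. That gene had 1 to 45 counts per library, against 94 to 196 for Gadd45a. Its log2 fold change was −1.04 (edgeR adjusted p = 0.812). Reads of Gadd45a and of that gene cannot be told apart where they overlap. Gadd45g (chromosome 13, 51846678 to 51848468, plus strand) had 60.1, 70.1 and 73.4 normalized counts in the isotype control libraries against 81.1, 72.0 and 70.8 in the DTA-1 libraries. Only DTA-1 replicate 1 stood above isotype control. On the log2 scale Gadd45g differed by 0.14 (SE 0.10, edgeR adjusted p = 0.785), and 0.07 without DTA-1 replicate 1 (edgeR adjusted p = 0.816). The 95% interval of −0.07 to 0.35 excluded a change of 1.5-fold in either direction. The fitted values of Gadd45b and Gadd45a thus had opposite signs, and the difference between them was not tested.

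**Figure D2:**
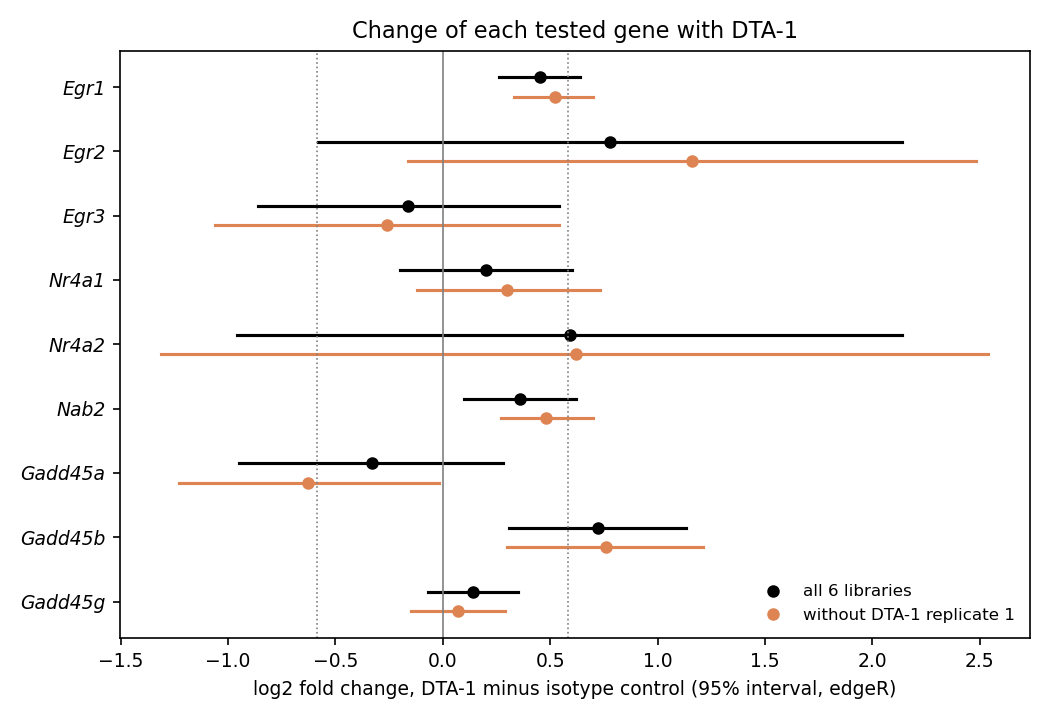
Log2 fold change (DTA-1 minus isotype control) of the 9 tested genes, with its 95% interval from edgeR, for all 6 libraries (black) and without DTA-1 replicate 1 (orange); dotted lines mark 1.5-fold. The intervals of Egr1, Nab2 and Gadd45b lie above 0 in both comparisons, that of Gadd45a lies below 0 only without DTA-1 replicate 1 (−1.23 to −0.02), and those of the low-count genes Egr2 and Nr4a2 are the widest.

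Levels of different genes were compared as normalized counts per kilobase of exon. In isotype control Gadd45g was highest at 57.9 ± 5.89, followed by Nab2 at 16.7 ± 1.25 and Egr1 at 15.2 ± 0.747 (SD, n = 3 each). Nr4a1 at 4.22 ± 0.946, Gadd45b at 3.26 ± 0.406 and Gadd45a at 2.70 ± 0.498 formed a middle group, and Egr3, Egr2 and Nr4a2 lay below 1, at 0.539 ± 0.155, 0.281 ± 0.185 and 0.110 ± 0.0929 (SD, n = 3 each). Neighbours in this order whose libraries overlapped were Nab2 with Egr1, Nr4a1 with Gadd45b, Gadd45b with Gadd45a, Egr3 with Egr2, and Egr2 with Nr4a2. In DTA-1 the order was the same except that Gadd45b, at 5.36 ± 0.264, came before Nr4a1, at 4.85 ± 0.615 (SD, n = 3 each), with overlapping libraries. Gadd45a, at 2.15 ± 0.677 in DTA-1 (SD, n = 3), was separated from Nr4a1 in both groups and from Gadd45b in DTA-1 but not in isotype control. Each family had 1 dominant transcript per length. Egr1 made up 94.1% to 96.2% of the EGR transcripts and Gadd45g 88.8% to 92.0% of the GADD45 transcripts in each library.

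**Figure D3:**
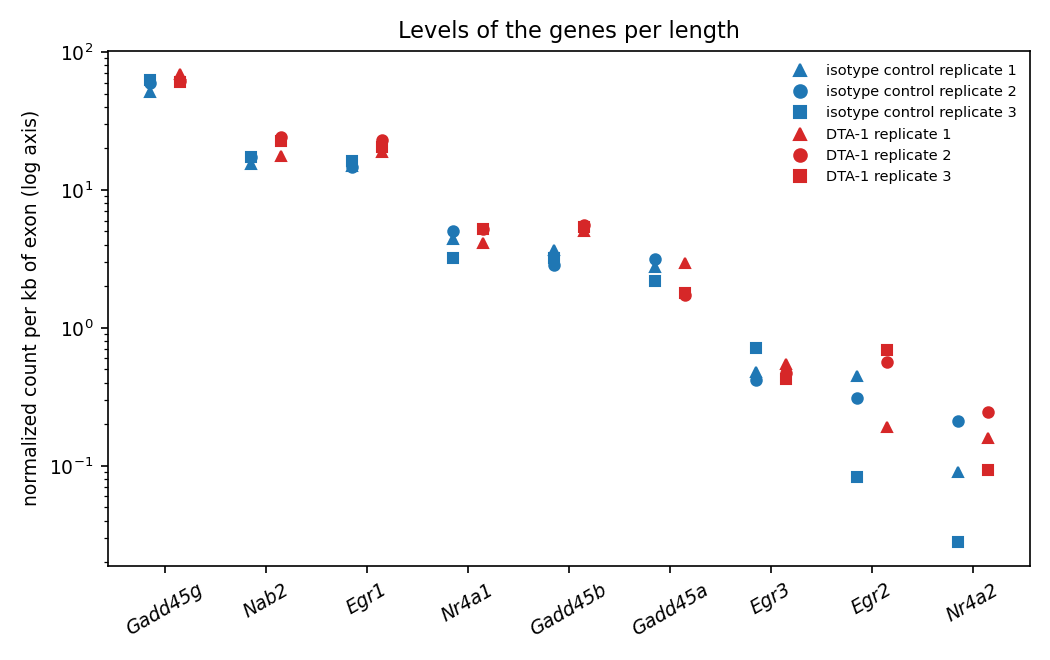
Normalized counts per kilobase of exon (log axis) of the 9 genes with counts, in each isotype control (blue) and DTA-1 (red) library, ordered by level; Nr4a3 had 0 counts and is not drawn. Gadd45g lies above 50 in every library, while Egr2 and Nr4a2 stay below 1 in every library.

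The other genes of this response were taken from 5 lists of related genes. Of 18 other early response genes 17 were tested, 13 with a higher fitted value with DTA-1 and a median log2 fold change of 0.08. None was differentially expressed by edgeR (count of 0, 4 higher and 0 lower at an unadjusted p under 0.05), DESeq2 or limma-trend. Of all genes tested 4.11% were higher at that p, a share to set beside the higher count of each list. No share of genes lower at that p was kept, so the lower counts of the lists stand without one. The groups did not overlap in 3 genes, all higher with DTA-1 (Ier2, Maff and Myc), against 5.29% of all genes tested. Maff had 4.88 to 5.39 normalized counts in isotype control against 6.89 to 9.26 in DTA-1 (log2 fold change 0.68, edgeR adjusted p = 0.627). Without DTA-1 replicate 1 Maff and Ier2 had 0.79 and 0.40 (edgeR adjusted p = 0.0893 and 0.0136). Junb, a subunit of the AP-1 factor, had 320, 296 and 340 normalized counts in the isotype control libraries against 321, 517 and 551 in the DTA-1 libraries. DTA-1 replicate 1 was at the level of isotype control and the other DTA-1 libraries were far above it, unlike Egr1 and Gadd45b. Junb had a log2 fold change of 0.54 (SE 0.16, edgeR adjusted p = 0.627). It was 0.75 without DTA-1 replicate 1, where Junb was the 1 gene of the list called (edgeR adjusted p = 0.00061). The 2 other most abundant genes, the antiproliferative gene Btg1 and the zinc finger gene Klf6, had log2 fold changes of 0.08 and 0.05 (edgeR adjusted p = 0.88 and 0.887).

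Of the 12 genes of SRF, ternary complex, MEF2 and CREB factors, which drive EGR and NR4A transcription, 11 were tested and 8 had a higher fitted value, with a median of 0.04. None was called by edgeR (count of 0, 1 higher and 0 lower at an unadjusted p under 0.05) or by the other tools. The most abundant were Crem, a cyclic AMP response factor gene, at a log2 fold change of 0.06, the SRF coactivator gene Mkl1 at 0.01 and the ternary complex factor gene Elk3 at 0.17, with edgeR adjusted p values of 0.919, 0.984 and 0.686. Of 14 genes of GADD45 partners and stress kinases all 14 were tested, 9 with a higher fitted value and a median of 0.05, and none was called (count of 0, 2 higher and 0 lower at an unadjusted p under 0.05, 0 by DESeq2 and limma-trend). Cdkn1a, the cell cycle inhibitor p21, had a log2 fold change of 0.06, Map2k3, a kinase of p38, 0.08 and Pcna, the replication clamp, −0.01 (edgeR adjusted p = 0.906, 0.805 and 0.971).

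EGR partners and genes linked to EGR2 or EGR3 in T cells numbered 12, of which 9 were tested and 6 had a higher fitted value, with a median of 0.07. None was called by edgeR with all libraries (count of 0, 2 higher and 0 lower at an unadjusted p under 0.05) or by the other tools. Id3, an inhibitor of E proteins whose gene EGR factors induce in T cells, had 53.5, 55.5 and 55.6 normalized counts in the isotype control libraries against 59.0, 36.7 and 33.0 in the DTA-1 libraries. DTA-1 replicate 1 was the highest of the 6 libraries and the other DTA-1 libraries were the lowest. On the log2 scale Id3 differed by −0.35 (SE 0.18, edgeR adjusted p = 0.722), and −0.65 without DTA-1 replicate 1 (edgeR adjusted p = 0.0096), where it was the 1 gene of the list called. Tnfrsf9, the receptor 4-1BB, differed by 0.41 on the log2 scale (edgeR adjusted p = 0.655), and by 0.58 without DTA-1 replicate 1 (edgeR adjusted p = 0.0481), just short of the 1.5-fold limit. Nab1, the other EGR corepressor, differed by 0.21 (edgeR adjusted p = 0.657), or 0.27 without that library (edgeR adjusted p = 0.143), and Cdkn1a is in this list too. Egr4 and Fasl had 0 counts in every library. NR4A partners and genes linked to NR4A factors in T cells numbered 10, all tested, with 3 higher fitted values and a median of −0.10. None was called (count of 0, 1 higher and 1 lower at an unadjusted p under 0.05, 0 by DESeq2 and limma-trend), also without DTA-1 replicate 1. The most abundant were Pdcd1, the checkpoint receptor PD-1, at a log2 fold change of −0.01, Tox2 at 0.20 and Rxrb, a retinoid receptor that pairs with NR4A proteins, at −0.19 (edgeR adjusted p = 0.981, 0.702 and 0.657).

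**Figure D4:**
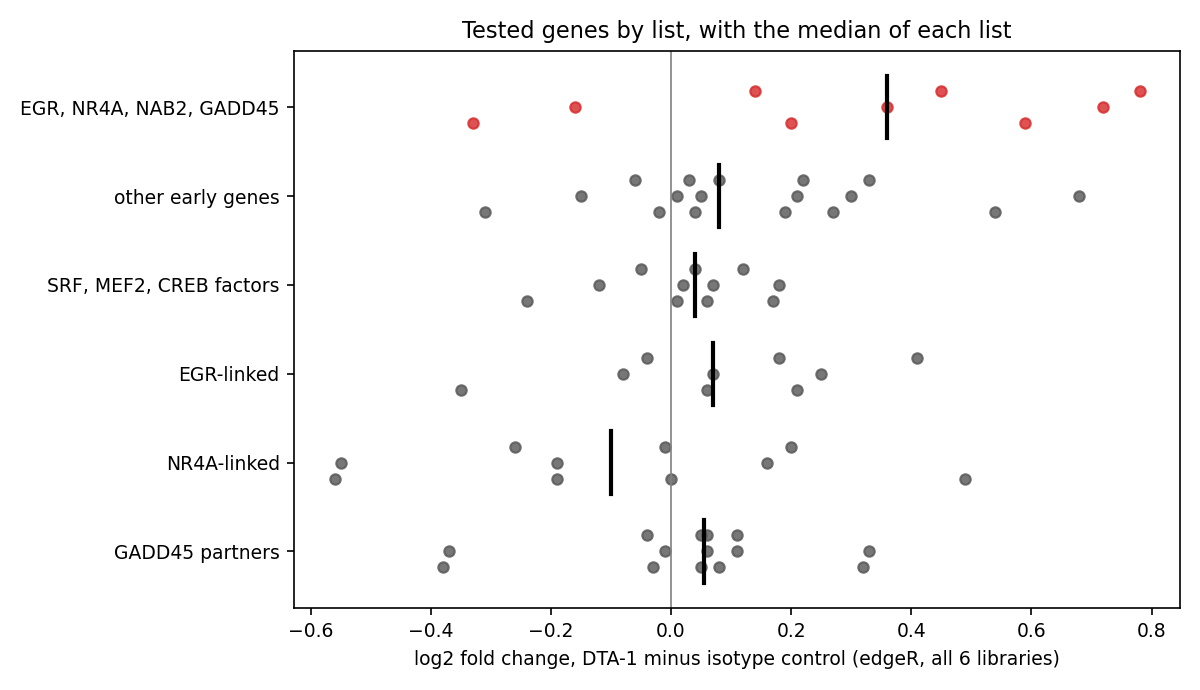
Log2 fold change (DTA-1 minus isotype control, edgeR, all 6 libraries) of each tested gene of the EGR, NR4A, NAB2 and GADD45 set (red) and of the 5 lists of related genes (grey), with the median of each list as a black bar. The medians of the 5 related lists lie between −0.10 and 0.08, and that of the 9 genes described here at 0.36.

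For the most abundant gene of each family, the genes with the most similar levels over the 6 libraries were ranked by Pearson r of log2 normalized counts among 9814 other genes, as a description over libraries that share their groups and depth. Nearest to Egr1 were Smyd5 (r = 0.998), Man2b2 (0.994) and Pex10 (0.993), and 161 genes had an r over 0.9. Smyd5 had 31.3, 31.4 and 33.4 normalized counts in the isotype control libraries against 38.0, 43.2 and 40.6 in the DTA-1 libraries, with replicate 1 the lowest of the DTA-1 libraries and above isotype control, as for Egr1. Nearest to Nr4a1 were Cnst (0.988), Dync1li1 (0.986) and the CREB gene Creb1 (0.985), all low in isotype control replicate 3. Creb1 had 38.0, 42.3 and 27.6 normalized counts in the isotype control libraries against 35.2, 40.8 and 41.3 in the DTA-1 libraries. Nearest to Gadd45g were Dync1li2 (0.991), Pde4dip (0.988) and Mtrr (0.985), all highest in DTA-1 replicate 1.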

How the data were processed

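RNA-seq libraries of 3 isotype control and 3 DTA-1 samples were analysed, grouped by their titles. The deposited count columns of the isotype control samples carry the label PBS-GITR, while their titles say Isotype. Reads were aligned and quantified by the authors with Partek software. The submitters' processing notes also name STAR 2.5.3a, bcl2fastq 2.17.1.14 and mm10. The annotation release and the strand setting are not given in the sources used here. The deposited values are expected counts, without normalization, and 79.7% of them were whole (within 1e-06). Gene ends were shifted by 1 base to the inclusive convention, after which 47741 of 49721 shared symbols, and 9 of the 10 genes, matched GENCODE M21 (GRCm38), the source of exon lengths.

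Expected counts were rounded and fitted in R 4.3.3 with edgeR 4.0.16 (filterByExpr, TMM, robust quasi-likelihood F test, Benjamini-Hochberg adjustment over all 14361 genes). DESeq2 1.42.0 and limma 3.58.1 (prior count of 2), other scalings and filters, a replicate block and each library left out were alternatives. Each standard error is the absolute log2 value divided by the square root of F. In simulated data 157 of 200 genes changed by 2-fold were recovered among 13993, with 6 false calls. Only 2-fold changes were simulated, and no simulated library was made to resemble the other group as DTA-1 replicate 1 did. This recovery therefore does not tell how many smaller changes would be found in the real libraries. Python 3.11.15, pandas 2.3.3, matplotlib 3.10.9 and numpy 2.4.6 served for tables and plots. The genes named are the 10 members, the 3 most abundant genes of each related list, genes of those lists called with all libraries or with 1 left out, and the 3 genes most like the most abundant member of each family (mean of at least 5 normalized counts). Early response genes whose groups did not overlap are named too, after their values were seen. Members and lists were chosen with earlier results of these data known. A 2-sided exact permutation test on 3 against 3 libraries cannot reach p = 0.05, so none was run. A withheld item is not reported here.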

Additional observations from a re-analysis of the deposited data

How the results depend on the processing

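The direction of the 9 tested genes was the same in 115 of 116 fits under the alternatives, and none of these genes was differentially expressed in any of them. The exception was Egr3, whose log2 fold change of −0.16 ranged from −0.31 to 0.10 with 1 library left out, the 0.10 without isotype control replicate 3. With the p left unadjusted 1 of the 9 genes, Gadd45b, passed the 1.5-fold limit. Over all genes the count of 0 became 20 with DESeq2's Wald test, 2 without the filter on low counts (Ctgf and Pdgfra, named after their values were seen), 337 with an unadjusted p, and 0 to 111 with 1 library left out, the 111 without DTA-1 replicate 1. With the replicate number as a block it was 1 (Chil3, likewise named). Same-numbered libraries did not deviate together (r = −0.0069, −0.00285 and 0.0152) and not every library correlated best with its own number, so the numbers were not read as pairs. The causes of these changes were not tested. Nr4a2 could not be fitted where every library had to reach 10 counts. The values of Egr2, Egr3 and Nr4a2 rest on few reads and spread widely between libraries.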

Other observations

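DTA-1 replicate 1 did not stand at the same place for all genes. Without it, 87 genes were called higher with DTA-1, and 79 of these had a mean of at least 1 normalized count in isotype control. For each gene the value of DTA-1 replicate 1 was placed on a scale from the isotype control mean (0%) to the mean of DTA-1 replicates 2 and 3 (100%). The median place of the 79 genes was 0.515% (quartiles −4.06% and 5.94%), 3 lay above 50%, and in 13 of them (16.5%) DTA-1 replicate 1 stood above every isotype control library. The 79 genes were chosen by the comparison that leaves this library out, and none of the 10 genes described above is among them. On this scale Gadd45b lay at 80.5%, Egr1 at 55.9% and Nab2 at 15.1%, and since their groups did not overlap these places had to be above 0%. Of the genes whose groups overlapped, Gadd45g lay at 377% and Nr4a2 at 84.2%, while Nr4a1 (−7.91%), Egr3 (−13.5%), Gadd45a (−23.8%) and Egr2 (−26.0%) lay on the far side of the isotype control mean. For Gadd45g the ends of the scale, 67.9 and 71.4, lay closer together than the isotype control SD of 6.91. The same held for Nr4a2 (0.445 and 0.685, SD 0.377) and Egr3 (2.37 and 1.98, SD 0.683), so the places of these genes mean little. The difference between the 10 genes and the 79 genes was not tested.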
